A study of Mus musculus with 2 samples.

Results

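The genes described here are 31 mouse genes of cholesterol synthesis and of its control by the SREBP and LXR transcription factors, given as a fixed list of symbols and all found among the 31053 genes counted. They comprise 18 sterol synthesis enzymes, 4 genes of the SREBP machinery, 4 of fatty acid synthesis, 3 of LXR and its target Mylip, and 2 of sterol transport and storage. Their unique molecular identifier (UMI) counts, which count captured RNA molecules, were summed by cell class and by library. The cells came from fibrosarcomas, tumours of connective tissue type, grown under the skin of wild-type C57BL/6 mice and read by 10x Genomics single-cell RNA sequencing of transcript 3' ends. One library is titled Blood and carries the treatment label of a saline (PBS) injection. The other is titled Control and carries the treatment label of an erythrocyte injection, so title and treatment contradict each other in both. The libraries are called here by their titles, and which tumour had received erythrocytes cannot be told from the labels. The sources used here do not give the tumour line, the age or number of animals, or any cell sort. With 1 library per group there was no replicate and no test, and each difference below compares these libraries, not the treatments.

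Cholesterol is built from acetyl-CoA by way of mevalonate, isoprenoid units, squalene and lanosterol. When membrane sterol is scarce, SCAP carries the SREBP proteins from the endoplasmic reticulum to the Golgi, where they are cut free to switch on the enzymes of this route. INSIG proteins hold them back when sterol is plentiful. Oxysterols, made when sterol is plentiful, activate the LXR receptors, which switch on export of cholesterol and synthesis of fatty acids. Macrophages meet large loads of sterol when they engulf dying cells, and they store the excess as esters or export it.

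There were 12057 barcodes with 115066023 UMIs titled Blood and 9475 barcodes with 115272096 UMIs titled Control. After filtering, 11137 cells titled Blood and 8874 titled Control remained, with medians of 6716 and 9534.5 UMIs. A total of 349 barcodes occurred in both libraries. For 324 of them the copy in one library held a median of 1.94% of the UMIs of the other (1.61% to 7.67%), and these low-UMI copies were removed, 212 from the library titled Blood and 112 from the library titled Control. Barcodes found in both libraries still made up 133 and 235 of the kept cells, and 47 of 69 mesenchymal-like cells titled Blood and 85 of 131 titled Control, so member values for that class are given with and without them. The cells were grouped by marker genes. Macrophage-like cells numbered 4119 titled Blood and 4113 titled Control, with medians of 15073 and 15434 UMIs, and unnamed clusters held 17.4% and 17.8% of cells. Neutrophil-like cells were 1779 titled Blood but 131 titled Control. The mesenchymal-like class, in which tumour cells and fibroblasts were not told apart, expressed 9 of 9 mesenchymal markers, which summed to 6850 CPM titled Blood and 8119 titled Control. CPM is the usual unit for UMIs scaled to a common total, here that of the class. Macrophage markers also summed to 2310 CPM titled Blood and 1208 titled Control there, against 27158 CPM titled Blood and 27945 titled Control in macrophage-like cells. Erythrocytes were lysed in preparation, and erythroid markers summed to at most 9.60 CPM in any class.

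RefSeq promoters, 250 bases before to 50 after the start site listed with each promoter (GRCm38.p6), were at hand for 25 of the 31 members. These start sites differ from some of the gene positions given below. The window of Msmo1 lies mostly inside the gene as placed there (chr8:64718139-64733792), and Idi1 as placed there starts at 8885501, within its window. A marked CCAAT thus need not lie before the gene. They are shown for 5 members whose values recur below, to place the letters of the known control elements of this pathway. Capitals mark CCAAT, the core recognised by NF-Y, a usual partner of SREBP, and TCACNCCAC, the letters of a sterol regulatory element, each searched on both strands, so that CCAAT also appears as ATTGG. The windows are chr13:119690101-119690400 on the plus strand for Hmgcs1, chr13:8885356-8885655 on the plus strand for Idi1, chr5:4104648-4104947 on the minus strand for Cyp51, chr8:64733529-64733828 on the minus strand for Msmo1, and chr1:156474279-156474578 on the minus strand for Soat1.
Hmgcs1: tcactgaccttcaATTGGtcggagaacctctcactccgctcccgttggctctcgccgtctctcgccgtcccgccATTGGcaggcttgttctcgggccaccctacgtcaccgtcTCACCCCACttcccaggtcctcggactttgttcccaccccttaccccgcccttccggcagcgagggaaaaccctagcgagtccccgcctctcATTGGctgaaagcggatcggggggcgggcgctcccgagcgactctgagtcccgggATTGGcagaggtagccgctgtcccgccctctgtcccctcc
Idi1: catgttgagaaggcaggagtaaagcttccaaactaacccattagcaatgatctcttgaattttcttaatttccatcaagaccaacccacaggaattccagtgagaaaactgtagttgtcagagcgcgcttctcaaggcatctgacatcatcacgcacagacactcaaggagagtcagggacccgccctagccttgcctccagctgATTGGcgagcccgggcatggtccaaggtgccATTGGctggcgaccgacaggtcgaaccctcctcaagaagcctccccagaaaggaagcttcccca
Cyp51: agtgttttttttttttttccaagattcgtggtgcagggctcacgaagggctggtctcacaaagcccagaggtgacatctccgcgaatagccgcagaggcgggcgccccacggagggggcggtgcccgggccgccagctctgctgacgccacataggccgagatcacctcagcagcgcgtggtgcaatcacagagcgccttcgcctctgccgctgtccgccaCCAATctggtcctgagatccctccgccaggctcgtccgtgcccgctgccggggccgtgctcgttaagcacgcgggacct
Msmo1: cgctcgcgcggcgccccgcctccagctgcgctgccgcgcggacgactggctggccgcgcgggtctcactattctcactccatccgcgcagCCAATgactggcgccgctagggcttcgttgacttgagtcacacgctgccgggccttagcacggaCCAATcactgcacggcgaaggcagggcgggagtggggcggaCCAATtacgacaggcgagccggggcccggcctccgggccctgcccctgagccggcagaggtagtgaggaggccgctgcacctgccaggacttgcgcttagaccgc
Soat1: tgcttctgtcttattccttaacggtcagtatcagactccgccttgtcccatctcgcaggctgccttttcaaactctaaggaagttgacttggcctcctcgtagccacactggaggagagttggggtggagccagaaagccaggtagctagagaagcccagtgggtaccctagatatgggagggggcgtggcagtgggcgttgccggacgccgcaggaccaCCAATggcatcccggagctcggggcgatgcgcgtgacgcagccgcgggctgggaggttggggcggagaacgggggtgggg

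CCAAT occurred in 20 of the 25 member promoters and in 14 of 15 enzyme promoters, and 41.1% of the 27025 genes with a promoter in the table held it. The letters GGGCGG, recognised by Sp1, occurred in the same numbers, 20 of 25 and 14 of 15, against 38.2% of all genes. TCACNCCAC was found in Hmgcs1 alone of the 25, against 1.44% of all genes, and it overlapped no CCAAT there. Hmgcs1 held 4 copies of CCAAT, Msmo1 3, Idi1 2, and Cyp51 and Soat1 1 each. A match describes the letters of a window and is neither a binding site nor a cause of any value below.

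In macrophage-like cells the pathway stood at nearly the same level in the library titled Blood as in the library titled Control, except for the desaturase Scd2. Summed over the 18 enzymes, sterol synthesis RNA was at 560 CPM (554 to 566) titled Blood and 541 CPM (536 to 547) titled Control, a ratio of 1.03 (1.02 to 1.05). These and all further intervals are exact 95% intervals that cover counting error only. Of 27 members past the expression filter (10 CPM or more in 1 of the libraries, and 10 UMIs), 1 was at least 1.5-fold higher in the library titled Blood, where 0.716% of all 7825 genes past the filter were, and 0 were at least 1.5-fold lower, where 1.38% of genes were. The median log2 ratio, taken on CPM plus a pseudocount of 5, was 0.05 over the 27 members, 0.04 over the 15 measured enzymes and 0.01 over all genes.

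Scd2 (chr19:44293674-44306864, GRCm38) encodes a stearoyl-CoA desaturase, which makes monounsaturated fatty acids. It stood at 76.2 CPM (74.1 to 78.3) in macrophage-like cells titled Blood and 47.4 CPM (45.7 to 49.1) in those titled Control, a ratio of 1.61 (1.54 to 1.68). A UMI of Scd2 was found in 49.9% of the cells titled Blood and 39.2% of those titled Control. When each cell was thinned to 1500 UMIs these shares were 10.7% (9.73% to 11.7%) and 6.18% (5.45% to 6.97%), with 119 and 83 shallower cells left out. Neutrophil-like cells, with medians of 1747 and 1963 UMIs, had thinned shares of 2.39% and 0.909%. With every macrophage-like cluster weighted equally the log2 ratio of Scd2 was 0.49 in place of 0.63, and 0 members then passed 1.5-fold. Scd1, its neighbour on the chromosome (chr19:44394455-44407879) and a desaturase of the same family, was nearly silent in these cells, at 1.67 CPM titled Blood and 2.23 titled Control. How reads were divided between near-identical stretches of such genes is not given in the sources used here.

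None of the enzymes passed 1.5-fold, and their ratios fell on both sides of 1. Hmgcs1 (chr13:119690379-119708260), the synthase that makes HMG-CoA, was at 59.4 CPM (57.6 to 61.4) titled Blood and 46.0 CPM (44.4 to 47.7) titled Control, a ratio of 1.29 (1.23 to 1.36). Msmo1 (chr8:64718139-64733792), which removes methyl groups from the sterol ring, was at 63.2 CPM titled Blood and 52.7 titled Control, or 1.199 times (1.15 to 1.25). Ebp (chrX:8185329-8193512), a sterol isomerase, was at 83.0 CPM titled Blood and 94.3 CPM titled Control, a ratio of 0.880 (0.849 to 0.913). Fdps (chr3:89093588-89101959), which makes farnesyl diphosphate, was at 60.7 CPM titled Blood and 65.8 titled Control, or 0.923 times (0.884 to 0.964). Of the measured enzymes 10 lay above a ratio of 1 and 5 below it, and those not named in this paragraph had ratios between 0.947 for Nsdhl and 1.22 for Hsd17b7. Idi1, which interconverts the isoprenoid units, and Pmvk, the phosphomevalonate kinase, were within counting error of equality, at 37.8 CPM titled Blood and 37.8 titled Control for Idi1 and at 53.3 CPM titled Blood and 53.6 titled Control for Pmvk. Acat2, Lss and Tm7sf2 did not pass the filter, at 6.19 CPM titled Blood and 6.92 titled Control for Acat2, 5.71 CPM titled Blood and 4.77 titled Control for Lss and 6.67 CPM titled Blood and 7.56 titled Control for Tm7sf2.

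All 4 genes of the SREBP machinery lay above a ratio of 1, and none passed 1.5-fold. Srebf1 (chr11:60199089-60222581), the SREBP gene tied mainly to fatty acid synthesis, was at 35.7 CPM (34.2 to 37.2) titled Blood and 29.3 CPM (28.1 to 30.7) titled Control, a ratio of 1.22 (1.15 to 1.29). Srebf2, the SREBP gene tied mainly to sterol synthesis, was at 59.6 CPM titled Blood and 54.3 titled Control. The retention protein Insig1 was at 45.2 CPM titled Blood and 40.3 titled Control, and the escort Scap at 17.1 CPM titled Blood and 15.3 titled Control. The fatty acid synthase Fasn, at 23.6 CPM titled Blood and 25.4 titled Control, and Acaca, which makes malonyl-CoA, at 13.7 CPM titled Blood and 15.1 titled Control, leaned the other way from Scd2.

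The LXR receptors leaned slightly to the library titled Control. Nr1h3 (chr2:91184061-91202834), the LXR alpha gene, was at 48.3 CPM (46.6 to 49.98) titled Blood and 52.1 CPM (50.4 to 53.9) titled Control, a ratio of 0.926 (0.882 to 0.972). Nr1h2, the LXR beta gene, was at 48.9 CPM titled Blood and 51.1 titled Control, within counting error of equality. The LXR target Mylip, a ubiquitin ligase, was at 21.0 CPM titled Blood and 20.2 titled Control, a ratio whose interval included 1 (0.962 to 1.12). Soat1 (chr1:156424525-156474331), which turns cholesterol into storage esters, was at 127 CPM titled Blood and 109 titled Control, or 1.17 times (1.13 to 1.204), and the sterol carrier Stard4 was at 30.03 CPM titled Blood and 27.6 titled Control.

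**Figure D1:**
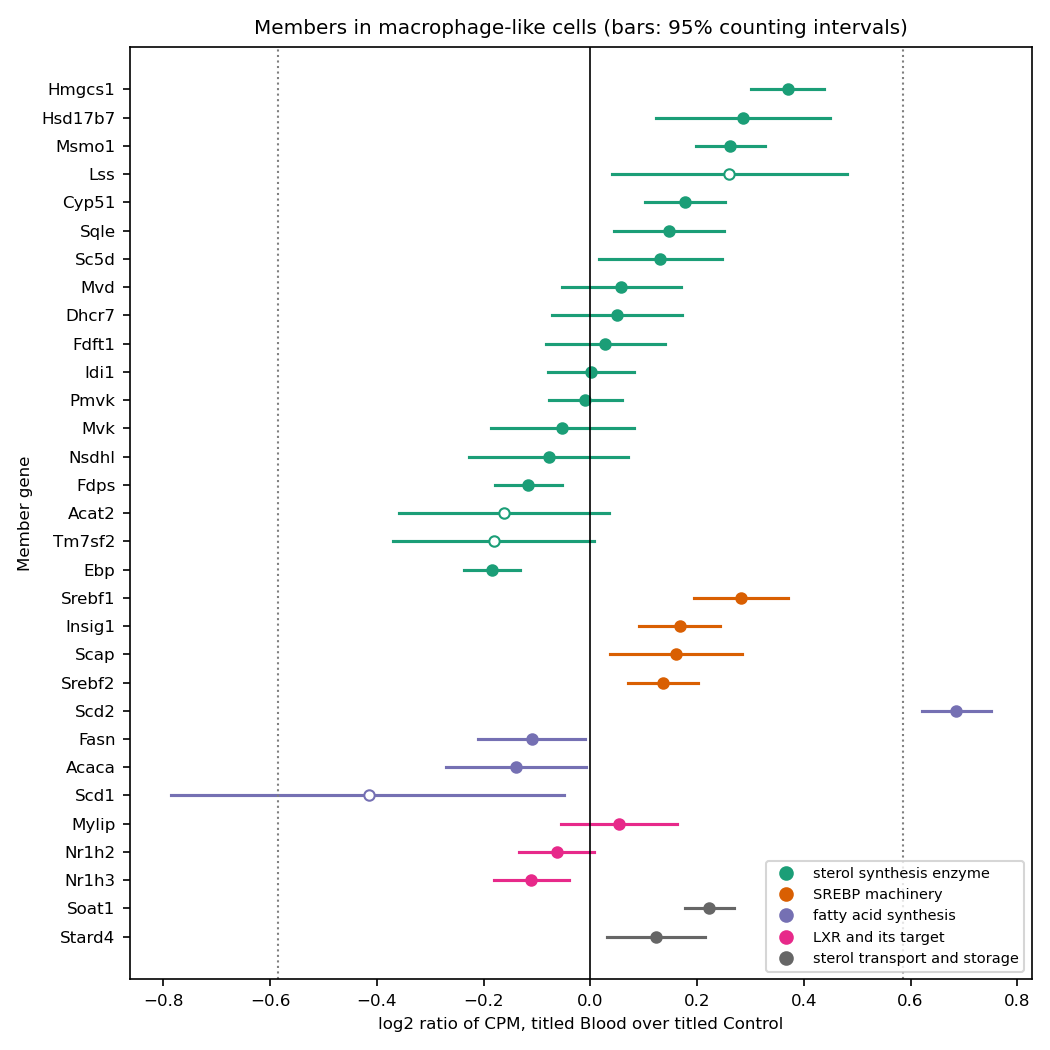
Log2 ratio of CPM, titled Blood over titled Control, for each member in macrophage-like cells (horizontal axis, without pseudocount), coloured by role. Points are ratios, bars their exact 95% counting intervals, open points members under the filter, and dotted lines mark 1.5-fold; Scd2 is the only filled point beyond a dotted line.

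Other genes of the pathway, taken from lists chosen with earlier results of these data known, were placed beside the members in macrophage-like cells. Of 11 further sterol genes 10 were measured, with 6 above a ratio of 1 and 4 below, and 0 passed 1.5-fold. For each list that follows, the 3 measured genes with the largest log2 ratios in either direction are named. Of 14 LXR target and efflux genes 10 were measured, with 5 above a ratio of 1 and 5 below, and 1 passed. That gene was Abca1, which exports cholesterol to apolipoproteins, at 206 CPM (202 to 209) titled Blood and 131 CPM (129 to 134) titled Control, a ratio of 1.57 (1.53 to 1.61). Pltp, a lipid transfer protein of the plasma, was at 102 CPM titled Blood and 134 titled Control, and the sterol hydroxylase Cyp27a1 was at 12.6 CPM titled Blood and 16.8 titled Control. Of 16 sterol handling genes 15 were measured, with 8 above a ratio of 1 and 7 below, and 0 passed. Ch25h, which makes 25-hydroxycholesterol, was at 90.9 CPM titled Blood and 62.1 titled Control, the lysosomal exporter Npc1 at 73.4 CPM titled Blood and 58.3 titled Control, and the endocytic receptor Lrp1 at 328 CPM titled Blood and 264 titled Control. Of 14 fatty acid genes 7 were measured, with 3 above a ratio of 1 and 4 below, and 0 passed. Lpin1, a phosphatidate phosphatase, was at 11.9 CPM titled Blood and 10.8 titled Control, a ratio whose interval included 1 (0.996 to 1.22). Acly, which makes cytosolic acetyl-CoA, was at 70.2 CPM titled Blood and 65.6 titled Control, and the desaturase Fads1 at 50.1 CPM titled Blood and 52.7 titled Control.

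Within the macrophage-like class, 6 clusters with at least 50 cells in each library were compared. They are called here by leading genes, Ccl8 and Gas6 (1082 cells titled Blood, 805 titled Control), Ciita and Tmem176a (692 and 977), Arg1 and Vegfa (1067 and 550), Mki67 and histone genes (673 and 814), Rsad2 and Ifit3 (331 and 816), and Acod1 and Ccl24 (153 and 65). The enzyme sum varied 1.27-fold among them titled Blood and 1.42-fold titled Control. It was highest in the cluster led by Ciita and Tmem176a, which also expresses the MHC class II genes, at 649 CPM (631 to 667) titled Blood and 618 CPM (604 to 631) titled Control. It was lowest in the cluster led by the interferon-induced genes Rsad2 and Ifit3, at 510 CPM (488 to 533) titled Blood and 435 CPM (422 to 448) titled Control. No enzyme past the filter in the cluster led by Ciita passed 1.5-fold over the other macrophage-like cells in both libraries, where 0.689% of all genes were higher and 4% lower. Lss, under the filter at 9.51 CPM titled Blood and 6.86 titled Control, had ratios of 1.84 (1.41 to 2.37) and 1.61 (1.25 to 2.06).

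Some members differed more among these clusters than the enzyme sum did. Nr1h3 was highest in the cluster led by Ccl8 and Gas6, at 61.5 CPM (57.9 to 65.2) titled Blood and 75.9 CPM (71.5 to 80.6) titled Control, not beyond counting error of the cluster led by Acod1 in the library titled Control, and lowest in the proliferating cluster led by Mki67, at 39.3 CPM titled Blood and 43.1 titled Control. Mylip was highest in the same Ccl8 cluster, at 31.8 CPM titled Blood and 28.2 titled Control. It alone of 26 measured members passed 1.5-fold over the other macrophage-like cells in both libraries, against 3.54% of all genes higher. In the cluster led by Rsad2, 2 of 26 members were at least 1.5-fold lower than in the rest of the class in both libraries. They were Fasn and Scd2, and 5.43% of all genes were lower. Fasn was at 14.7 CPM titled Blood and 16.4 titled Control there, and Scd2 at 49.4 CPM titled Blood and 27.3 titled Control. Dhcr7, the last reductase of the route, was at 9.47 CPM titled Blood and 7.13 titled Control in the cluster led by Acod1. It was the 1 member of 26 at least 1.5-fold lower there, against 5.67% of genes. These counts of members lay near the shares over all genes, so they do not set the members apart.

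Scd2 was higher in the library titled Blood in all 6 clusters, though the size differed. Its ratio was 1.81 (1.499 to 2.18) in the cluster led by Rsad2, 1.61 (1.45 to 1.80) in that led by Arg1 and 1.54 (1.41 to 1.68) in the proliferating one. It was 1.49 in the cluster led by Ciita, 1.46 in that led by Ccl8, and 1.06 (0.799 to 1.41) in that led by Acod1, where the interval included 1. It was the sole member past 1.5-fold of 27 in the cluster led by Arg1 (0.608% of genes higher and 0.714% lower) and of 28 in the proliferating one (0.643% and 0.958%). No member passed of 27 in the cluster led by Ccl8 (0.821% and 1.51%) or of 26 in that led by Ciita (1.02% and 1.44%). The Rsad2 cluster also held Hmgcs1 at 54.9 CPM titled Blood and 34.1 CPM titled Control and Srebf1 at 37.7 CPM titled Blood and 22.6 titled Control. With Scd2 these made 3 of 25 members past the filter at least 1.5-fold higher there, where 1.52% of genes were, and 0 lower, where 1.25% were. In the cluster led by Acod1, 1 of 26 members was higher (6.58% of genes) and 3 lower (7.57% of genes), each on few UMIs. Nsdhl, a sterol dehydrogenase, had 24 UMIs titled Blood and 6 titled Control there, and the intervals of the ratios of all 4 included 1.

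Among clusters with macrophage markers that the naming rule left unnamed, 2 stood well below the macrophage-like class in sterol synthesis RNA. The first was led by Mmp12, Cd36, a scavenger receptor, and Hmox1, the enzyme that breaks down haem. It held 650 cells titled Blood (5.84% of kept cells, median 6530 UMIs) and 285 titled Control (3.21%, median 10314 UMIs). Its enzyme sum was 260 CPM (247 to 274) titled Blood and 282 CPM (264 to 301) titled Control, 0.465 times (titled Blood) and 0.521 times (titled Control) that of macrophage-like cells. Of 14 measured enzymes, 12 were at least 1.5-fold lower than in macrophage-like cells in both libraries. Over the members, 17 of 26 were lower, against 16.3% of all genes, and 2 were higher, against 8.4%. Fdps was at 13.9 CPM titled Blood and 19.0 CPM titled Control, and Dhcr7 at 4.89 CPM titled Blood and 5.06 titled Control. Srebf2 was lower at 32.6 CPM titled Blood and 35.4 titled Control, Nr1h3 at 20.9 CPM titled Blood and 23.5 titled Control, and Fasn at 3.76 CPM titled Blood and 8.04 titled Control. The members that were higher were the ester-forming Soat1, at 239 CPM titled Blood and 219 CPM titled Control, ratios of 1.88 and 2.01 over macrophage-like cells, and Scd2, at 145 CPM titled Blood and 88.1 titled Control, ratios of 1.90 and 1.86. Those 12 enzymes and the storage enzyme thus stood on opposite sides of the macrophage-like class in both libraries. Between libraries, 1 of 20 members past the filter there was at least 1.5-fold higher titled Blood (5.5% of genes), namely Scd2, and 2 were lower (2.06%), Cyp51 at 11.3 CPM titled Blood and 17.0 CPM titled Control, and Scap at 9.97 CPM titled Blood and 15.5 titled Control.

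The second cluster was led by Retnla, Lyve1 and Cd163, with 452 cells titled Blood (median 5494 UMIs) and 273 titled Control (median 7739 UMIs). Its enzyme sum was 231 CPM (213 to 249) titled Blood and 308 CPM (287 to 329) titled Control, and 9 of 14 enzymes were at least 1.5-fold lower than in macrophage-like cells in both libraries. Over the members, 14 of 26 were lower, against 9.7% of all genes, and 0 were higher, against 9.19%. Their median log2 ratio was -0.89 titled Blood and -0.50 titled Control, beside -0.02 and -0.02 over all genes. Here the libraries differed as well: 9 of 21 measured members stood at least 1.5-fold lower in the library titled Blood, where 9.46% of genes were, and 3 were higher, where 6.35% were. Fdps was at 8.08 CPM titled Blood and 22.9 CPM titled Control, a ratio of 0.352 (0.209 to 0.576). Cyp51, the lanosterol demethylase, was at 6.33 CPM titled Blood and 20.03 titled Control, or 0.316 times (0.175 to 0.546), and Stard4 at 6.33 CPM titled Blood and 15.3 titled Control. Higher in the library titled Blood were Soat1 at 196 CPM titled Blood and 119 titled Control, Mylip at 43.9 CPM titled Blood and 28.0 titled Control, and Scd2 at 62.6 CPM titled Blood and 41.5 titled Control.

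Both clusters had fewer UMIs per cell than the macrophage-like class, and the part of depth in their low enzyme sums was not tested. Monocyte-like cells, another cell type with medians of 6585 and 6368 UMIs, had enzyme sums of 622 CPM titled Blood and 496 CPM titled Control, which is not a test of depth. Another unnamed cluster, led by Hspb1 and Cd300e, leaned the other way between libraries. There 10 of 27 members stood at least 1.5-fold higher in the library titled Blood, where 7.12% of genes were, and 0 were lower, where 7.6% were. It held 128 cells titled Blood and 209 titled Control, with enzyme sums of 621 CPM (575 to 669) titled Blood and 428 CPM (399 to 460) titled Control, and Msmo1 in it was at 77.8 CPM titled Blood and 37.8 titled Control. In the unnamed cluster led by Ifitm1 and MHC class II genes 4 of 27 members were higher titled Blood (3.12% of genes) and 0 lower (2.41%), in that led by Ccl24 and Fn1 4 of 23 (5.61%) and 0 (3.23%), and in that led by Cxcl9 3 of 25 (6.36%) and 2 (8.16%). A small cluster led by the endothelial genes Fabp4 and Igfbp7, with 58 cells titled Blood and 80 titled Control, had 2 of 23 higher (14.6%) and 9 lower (26%). Scd2 was among the members higher titled Blood in each of these unnamed clusters, at 112 CPM titled Blood and 70.8 titled Control in that led by Ifitm1, 79.7 CPM titled Blood and 51.5 titled Control in that led by Ccl24, and 65.4 CPM titled Blood and 35.6 titled Control in that led by Cxcl9, a pattern picked out after the values were seen.

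**Figure D2:**
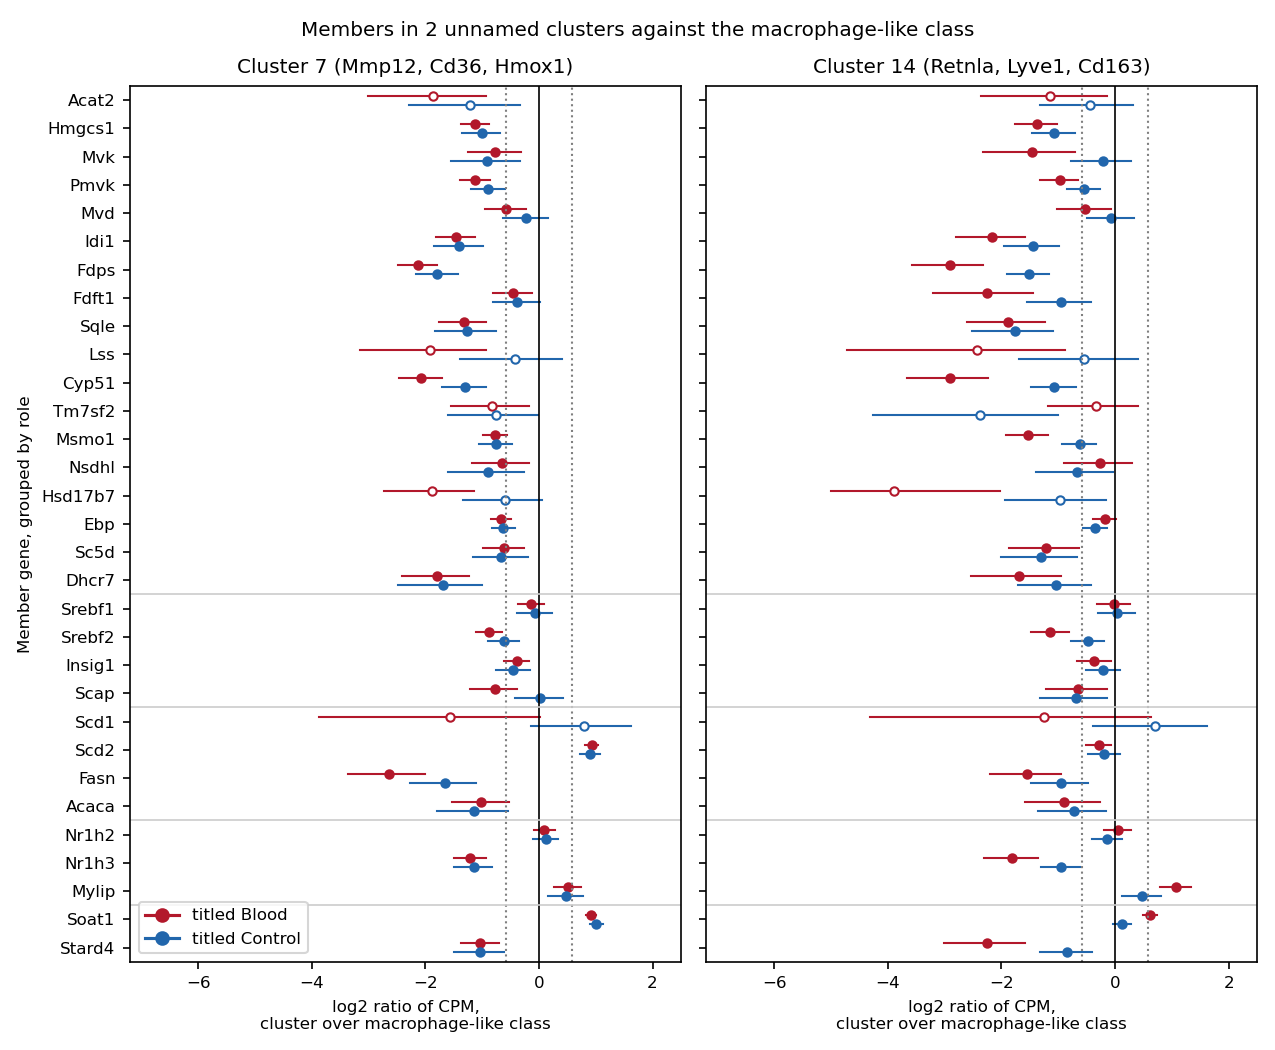
Log2 ratio of CPM in the unnamed cluster led by Mmp12, Cd36 and Hmox1 (left) and in that led by Retnla, Lyve1 and Cd163 (right) over the macrophage-like class (horizontal axes, without pseudocount), for each member and library; bars are exact 95% counting intervals, open points members under the filter, and dotted lines 1.5-fold. Most enzymes lie left of the lower line, and Soat1 and Scd2 lie right of the upper line in the left panel.

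**Figure D3:**
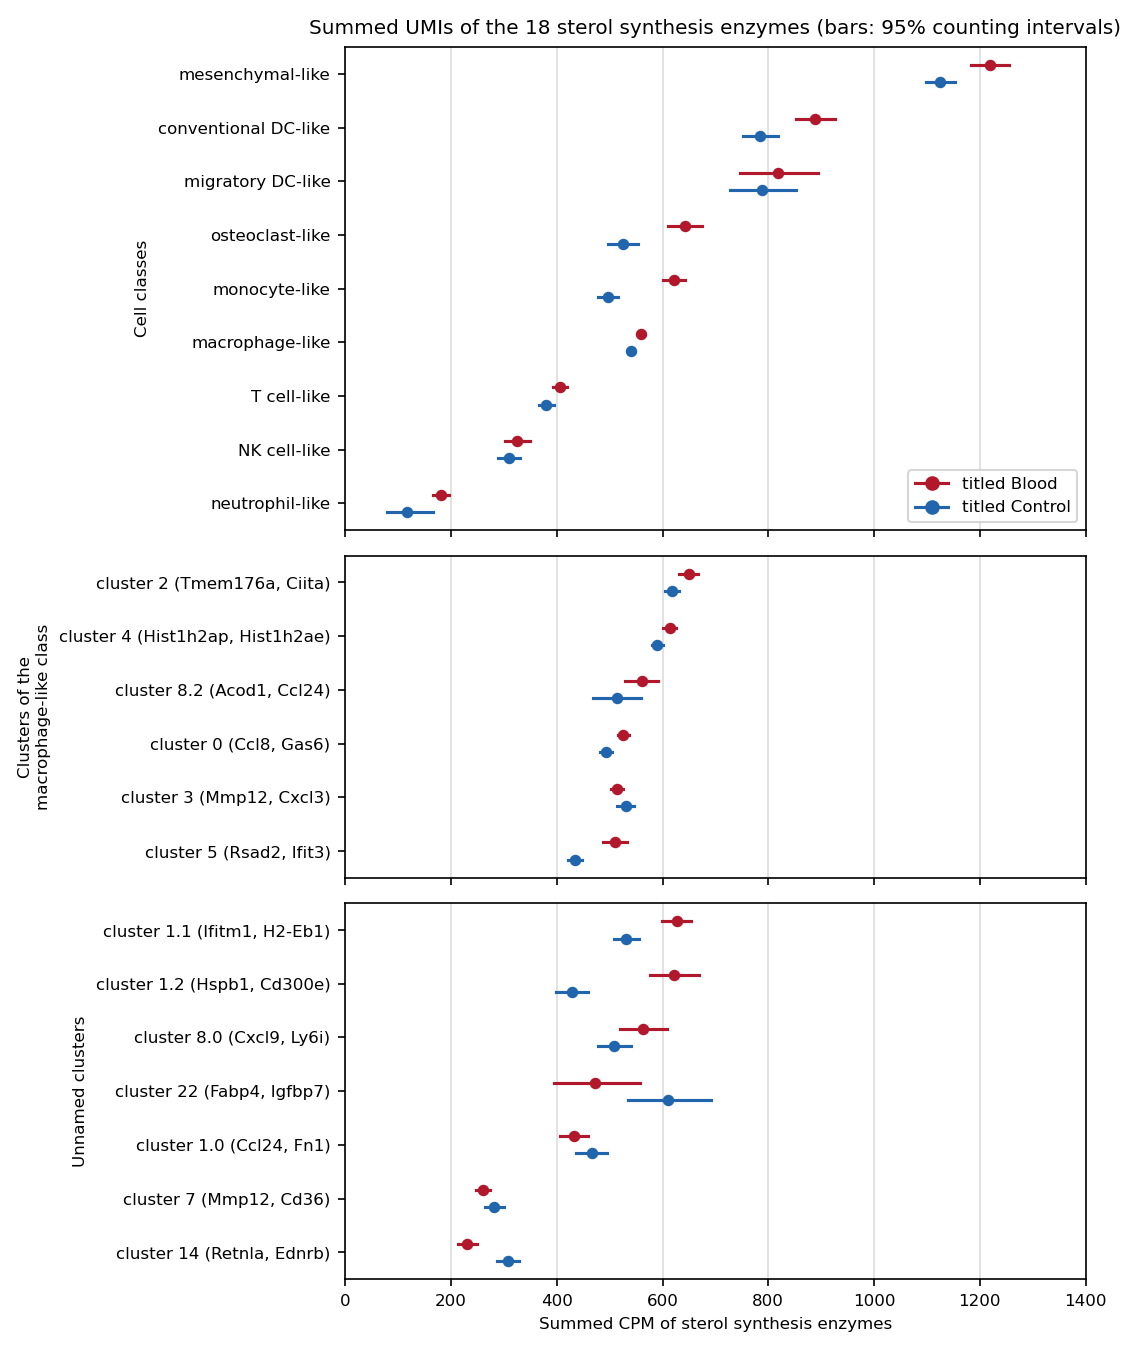
Summed CPM of the 18 sterol synthesis enzymes (horizontal axis) by cell class, by macrophage-like cluster and by unnamed cluster, with exact 95% counting intervals; cluster labels give leading genes. Of the 9 classes, mesenchymal-like cells lie highest at 1219 CPM titled Blood and 1125 titled Control and neutrophil-like cells lowest at 181 CPM titled Blood and 116 titled Control.

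Across the 9 classes with at least 50 cells in each library, mesenchymal-like cells carried the most sterol synthesis RNA when all kept cells were counted. Their enzyme sum was 1219 CPM (1182 to 1256) titled Blood and 1125 CPM (1098 to 1153) titled Control, 2.18 and 2.08 times that of macrophage-like cells. Of 16 measured enzymes, 11 were at least 1.5-fold higher than in macrophage-like cells in both libraries, and over the members 16 of 29 were, against 31.8% of all genes. Fdps was at 258 CPM titled Blood and 250 CPM titled Control, Sqle, the squalene epoxidase, at 77.7 CPM titled Blood and 71.6 titled Control, and Lss, which closes the ring to lanosterol, at 22.1 CPM titled Blood and 22.8 titled Control. All 4 fatty acid genes were higher, with Scd2 at 252 CPM titled Blood and 196 titled Control and Fasn at 104 CPM titled Blood and 104 titled Control. Only 3 of the 29 members were at least 1.5-fold lower in both libraries, a smaller share than the 21.3% of all genes. They were the 3 LXR genes, with Nr1h3 at 4.54 CPM titled Blood and 3.92 titled Control and Mylip at 2.84 CPM titled Blood and 8.01 titled Control. Without barcodes found in both libraries, 22 cells titled Blood and 46 titled Control remained, the enzyme sum was 849 CPM titled Blood and 1209 titled Control, and 6 of 16 enzymes passed in place of 11. The 31.8% belongs to the setting with all kept cells, and no share over all genes is given without those barcodes. The sum titled Blood then lay below that of conventional DC-like cells without such barcodes, at 893 CPM. Without those barcodes Fdps was at 171 CPM titled Blood and 252 titled Control, and Lss at 11.4 CPM titled Blood and 26.5 titled Control. Fasn was then at 83.7 CPM titled Blood and 97.7 titled Control, and Nr1h3 at 19.0 CPM titled Blood and 14.3 titled Control. Mylip was then at 3.81 CPM titled Blood and 26.5 titled Control. These values rest on few cells and carry no intervals, so whether Mylip lay above its macrophage-like level titled Control was not settled. Nr1h2 was then at 41.9 CPM titled Blood and 42.8 titled Control, no longer 1.5-fold below macrophage-like cells. With the low-UMI copies kept, the sum was 1237 CPM titled Blood and 1143 titled Control and 12 of 16 passed, again without a share over all genes.

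Dendritic cells came next. In conventional DC-like cells, the antigen-presenting cells marked by Flt3 and Zbtb46, the enzyme sum was 889 CPM (852 to 927) titled Blood and 785 CPM (752 to 818) titled Control. Hmgcs1, Pmvk, Idi1, Fdps and Cyp51 were at least 1.5-fold higher than in macrophage-like cells in both libraries, as was Srebf2, so that 6 of 26 members passed, against 11.1% of all genes. Nr1h3 and Mylip were the 2 of 26 members that were lower, a smaller share than the 18.6% of all genes. Srebf2 reached its highest level of the 9 classes there, at 135 CPM titled Blood and 128 titled Control. Migratory DC-like cells, marked by Ccr7 and Fscn1, had an enzyme sum of 818 CPM titled Blood and 788 titled Control. They held the highest Pmvk, at 201 CPM titled Blood and 203 CPM titled Control, and the highest Idi1, at 86.9 CPM titled Blood and 173 titled Control. Most members were not raised there. Against macrophage-like cells, 4 of 27 members were at least 1.5-fold higher and 11 lower in both libraries, with no share over all genes given. Their median log2 ratio was -0.28 titled Blood and -0.54 titled Control, beside -0.26 and -0.35 over all genes. Plasmacytoid DC-like cells were too few to compare, at 4 cells titled Blood and 23 titled Control, and their enzyme sums were 1687 CPM (1264 to 2207) titled Blood and 1591 CPM (1421 to 1776) titled Control.

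Neutrophil-like cells lay at the other end. The enzyme sum was 181 CPM (166 to 196) titled Blood and 116 CPM (79.1 to 165) titled Control, and 13 of 14 measured enzymes were at least 1.5-fold lower than in macrophage-like cells, beside 48.3% of all genes. The exception was the desaturase Sc5d, at 57.0 CPM titled Blood and 37.5 CPM titled Control. Mylip, at 57.9 CPM titled Blood and 75.1 titled Control, and Soat1, at 210 CPM titled Blood and 158 titled Control, were each at their highest of the 9 classes, Soat1 beyond counting error of the next class in the library titled Blood alone. T cell-like and NK cell-like cells were also low, with sums of 406 CPM titled Blood and 380 titled Control in T cell-like cells and of 325 CPM titled Blood and 310 titled Control in NK cell-like cells. Of 14 measured enzymes 6 were lower than in macrophage-like cells in T cell-like cells (24.1% of genes) and 10 in NK cell-like cells (24.9%).

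The place of most members in this order was shared by the libraries. Of 31 members, 24 were highest in the same class in both, 16 of them in mesenchymal-like cells, and 13 of 18 enzymes were lowest in neutrophil-like cells in both. Nr1h3 was highest in macrophage-like cells and Insig1 in monocyte-like cells, at 60.0 CPM titled Blood and 57.6 titled Control, each with an interval apart from that of the next class in both libraries. Stard4 was highest in T cell-like cells, at 37.7 CPM titled Blood and 28.0 titled Control, but not beyond counting error of the next class. Mvd, Tm7sf2, Hsd17b7, Ebp, Sc5d, Dhcr7 and Nr1h2 changed their highest class between libraries. Nr1h3 in T cell-like cells was at 0.622 CPM titled Blood and 7.95 CPM titled Control, beside macrophage markers of 657 CPM titled Blood and 3071 titled Control, and their part in it was not tested.

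Scd1, one of the members highest in mesenchymal-like cells in both libraries, was at 95.6 CPM titled Blood and 75.7 CPM titled Control in mesenchymal-like cells and at most 6.69 CPM in the other 8 classes. Without barcodes found in both libraries it was at 110 CPM titled Blood and 85.5 titled Control in mesenchymal-like cells. In the unnamed cluster led by Fabp4 and Igfbp7 it was at 55.5 CPM titled Blood and 43.2 titled Control, on 16 UMIs titled Blood and 17 titled Control. B cell-like cells, 60 titled Blood and 37 titled Control, held 358 CPM (292 to 434) titled Blood and 266 CPM (205 to 340) titled Control. A UMI of Scd1 was found in 71.7% and 70.3% of them at medians of 3151.5 and 3864 UMIs, and after thinning in 39.7% (27.0% to 53.4%) and 37.1% (21.5% to 55.1%). NK cell-like cells, with medians of 4259 and 5079.5 UMIs, had no UMI of Scd1, with exact upper limits of 0.930% and 0.937% on the share of cells with a UMI, not of cells that express it. As a background share, T cell-like cells, with medians of 4838 and 5173.5 UMIs, had a UMI of Scd1 in 0.329% and 0.484% of cells.

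**Figure D4:**
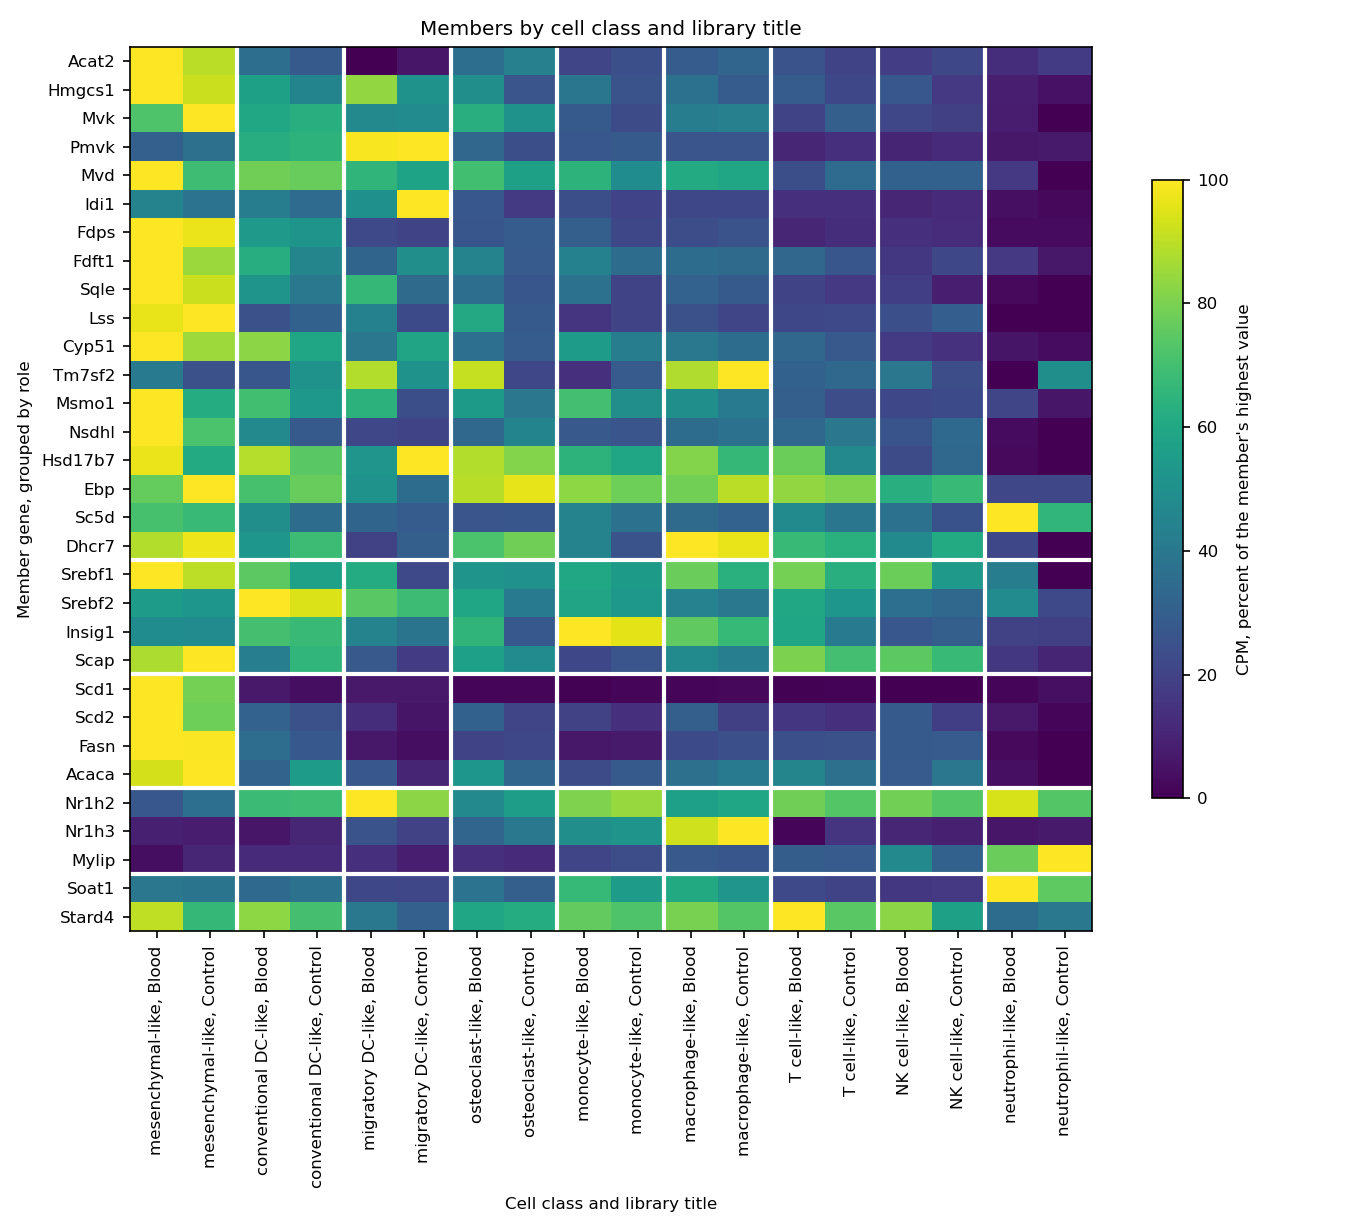
CPM of each member (rows, grouped by role with white lines between the groups) in 9 cell classes of each library (columns), as a percent of the member's highest value in the figure. Yellow marks the class where a member is highest; the mesenchymal-like columns are the brightest for most enzymes and the neutrophil-like columns the darkest.

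Outside macrophage-like cells the libraries differed more, over classes with far fewer UMIs. Lowest and highest ratios are given here among the members past the filter in a class. In monocyte-like cells 2 of 21 members past the filter were at least 1.5-fold higher in the library titled Blood, where 1.49% of genes were, and 0 were lower, where 2.44% were. Sqle was at 29.0 CPM titled Blood and 15.8 CPM titled Control, a ratio of 1.83 (1.41 to 2.40), and Hmgcs1 at 62.1 CPM titled Blood and 40.1 titled Control, a ratio of 1.55 (1.31 to 1.84). The lowest ratio was that of Acaca, at 8.49 CPM titled Blood and 10.4 titled Control. Macrophage markers summed to 3183 CPM titled Blood and 5704 CPM titled Control in these cells, and their part in the difference was not tested.

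In osteoclast-like cells, marked by Acp5 and Ctsk, 7 of 28 members were higher in the library titled Blood (10.3% of genes) and 0 lower (5.99%). Insig1 was at 39.3 CPM titled Blood and 16.5 CPM titled Control, a ratio of 2.38 (1.64 to 3.52), and Nsdhl had the lowest ratio, at 10.5 CPM titled Blood and 14.1 titled Control. Barcodes found in both libraries made up 22 of these 104 cells titled Blood and 31 of 87 titled Control, and the enzyme sum was at 642 CPM titled Blood and 525 titled Control with them and at 654 CPM titled Blood and 496 titled Control without. In NK cell-like cells 4 of 24 were higher (4.28%) and 0 lower (4.66%), with Sqle at 14.5 CPM titled Blood and 6.44 titled Control, or 2.26 times (1.24 to 4.24), and Acaca lowest at 10.7 CPM titled Blood and 14.7 titled Control. T cell-like cells had 0 of 24 past 1.5-fold either way (1.95% higher and 5.4% lower). Insig1 was at the upper end there, at 35.2 CPM titled Blood and 24.4 titled Control, and Mvd, the mevalonate diphosphate decarboxylase, at the lower end at 7.96 CPM titled Blood and 11.5 titled Control.

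Dendritic cells were mixed. In conventional DC-like cells 1 of 25 members was higher (4.21%) and 2 lower (3.7%), with Nsdhl at 14.6 CPM titled Blood and 8.84 CPM titled Control, an interval that included 1 (0.967 to 2.88), and Acaca at 11.8 CPM titled Blood and 20.5 titled Control, a ratio of 0.575 (0.355 to 0.913). In migratory DC-like cells 8 of 24 were higher (18.4%) and 3 lower (11.8%), over 64 cells titled Blood and 76 titled Control. Msmo1 was at 81.9 CPM titled Blood and 30.8 titled Control there, a ratio of 2.66 (1.60 to 4.53), and Idi1 at 86.9 CPM titled Blood and 173 titled Control, a ratio of 0.502 (0.357 to 0.696). In neutrophil-like cells 6 of 13 members past the filter were higher (24.2%) and 0 lower (18.2%), but the class held only 266443 UMIs in the library titled Control. Srebf1 had 63 UMIs titled Blood, 19.5 CPM, and none titled Control. The value titled Blood was 1.73 times a fixed floor of 3 counts titled Control, which would be 11.3 CPM. That floor is not an exact interval, so 1.73 is not a lower limit on the ratio. Mylip had the lowest ratio there, at 57.9 CPM titled Blood and 75.1 titled Control.

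In mesenchymal-like cells 2 of 28 members were higher in the library titled Blood (2.73%) and 0 lower (3.16%). Msmo1 was at 127 CPM titled Blood and 78.8 CPM titled Control, a ratio of 1.62 (1.42 to 1.85), and Hsd17b7, a sterol ketoreductase, at 12.5 CPM titled Blood and 7.84 titled Control. Among those 28 members Mvk, the mevalonate kinase, had the lowest ratio, at 23.3 CPM titled Blood and 32.0 titled Control. Without barcodes found in both libraries Msmo1 was at 60.9 CPM titled Blood and 87.5 titled Control. Its higher value titled Blood was thus not seen in the 22 cells titled Blood and 46 titled Control that were left. No interval is given for the values without those barcodes, so no direction is read from them. Hsd17b7 was then at 15.2 CPM titled Blood and 10.2 titled Control, and Mvk at 7.61 CPM titled Blood and 44.8 titled Control.

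By direction alone, 5 of the 27 members measured in macrophage-like cells (18.5%) were above in the library titled Blood in all 9 classes, where 1.61% of all genes measured there were, and 0 were below in all, where 1.19% were. They were Hmgcs1, Sqle, Srebf1, Srebf2 and Scd2, a count made after the values were seen. It changed with the handling of shared barcodes: without barcodes found in both libraries only Srebf1 was above in all 9, against 0.832% of genes, and with the low-UMI copies kept 3 were, Hmgcs1, Sqle and Scd2, against 1.61% of genes. In mesenchymal-like cells without those barcodes Hmgcs1 was at 152 CPM titled Blood and 175 CPM titled Control, Sqle at 30.4 CPM titled Blood and 91.6 titled Control, Srebf2 at 64.7 CPM titled Blood and 73.3 titled Control, and Scd2 at 190 CPM titled Blood and 324 titled Control. These values rest on 22 cells titled Blood and 46 titled Control and carry no intervals.

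**Figure D5:**
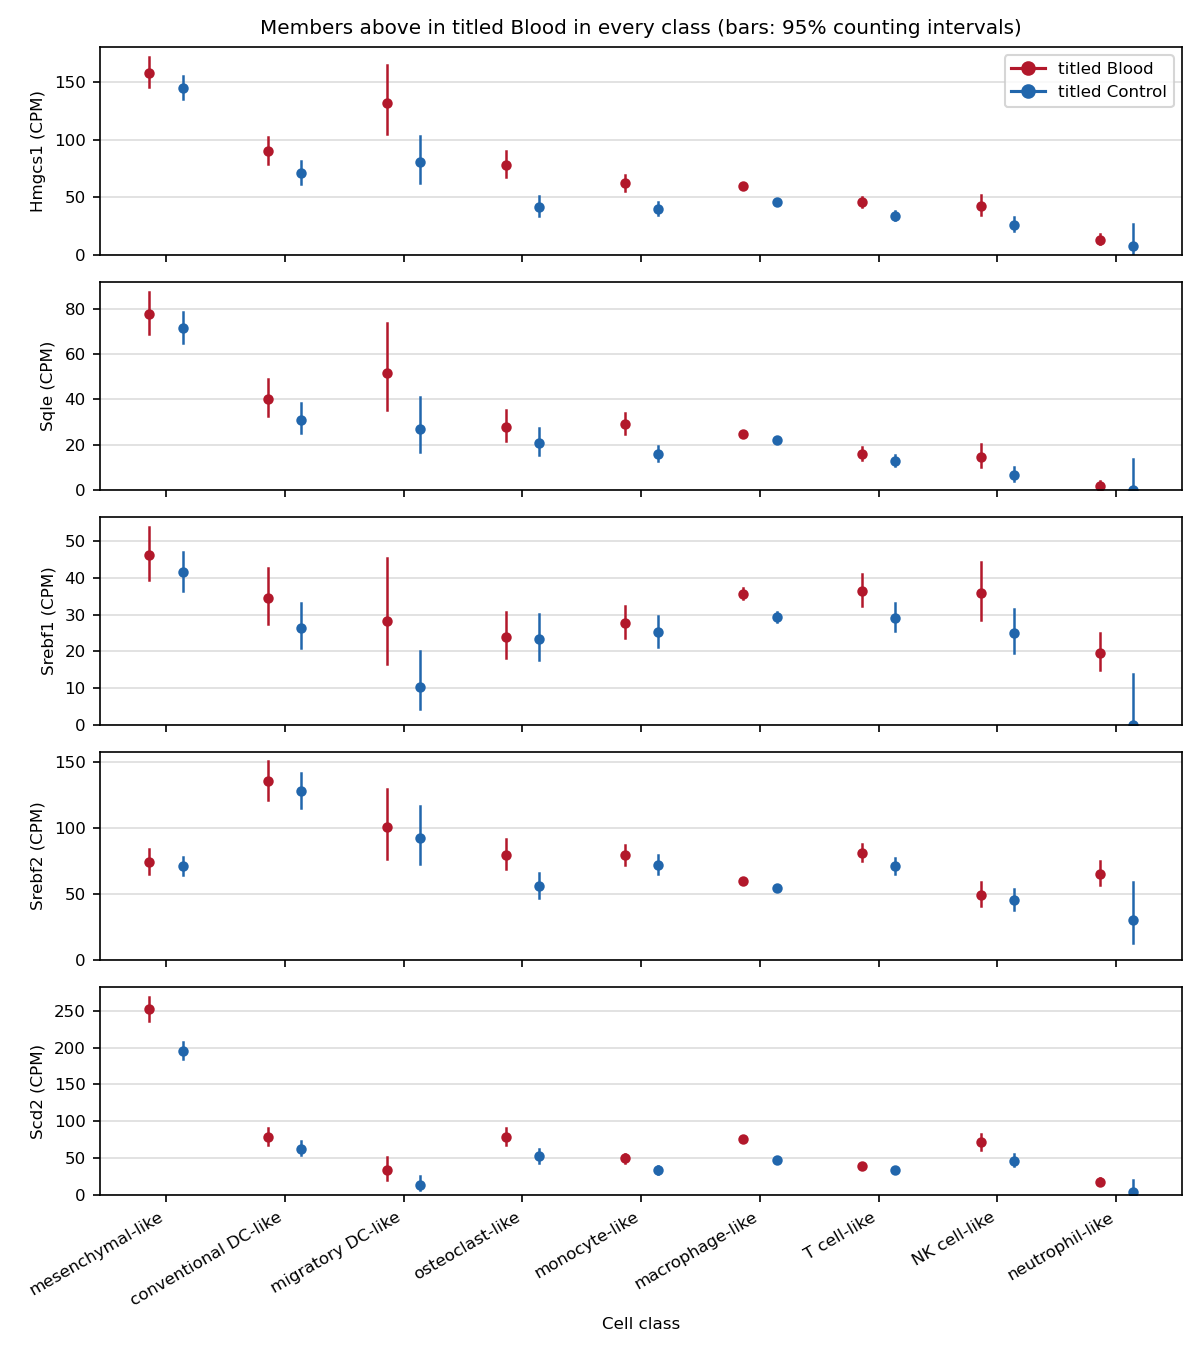
CPM (vertical axes) of the 5 members with the higher value titled Blood in every one of 9 classes (horizontal axis), with exact 95% counting intervals. Intervals overlap between the libraries in many of the smaller classes, and without barcodes found in both libraries only Srebf1 kept this direction in all 9.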

How the data were processed

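The authors deposited matrices of unnormalized UMI counts. The submitters' processing notes name Cell Ranger 3.1.0 and the mm10 build. Near-identical gene copies can share or lose reads. Gene positions are from GENCODE M21 (GRCm38).

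Barcodes with under 300 genes, under 500 UMIs or over 20% mitochondrial UMIs were dropped (leaving 11617 of 12057 barcodes titled Blood, 8985 of 9475 titled Control). Copies of a shared barcode with over 10 times fewer UMIs than the other were removed. Scrublet (scanpy 1.11.5) marked 268 doublets (2.35%) titled Blood and 0 titled Control, against expected rates of 9.65% and 7.58%, so it did not work in the library titled Control and doublets remain. Cells of both libraries were clustered together without the members among 2000 variable genes (30 components, 15 neighbours, Leiden resolution 1). Clusters were named from marker lists by a mean standardised score of at least 0.5, a margin of 0.35, at least 3 detected markers and no class outnumbering the name's own markers among the top 10 genes. These limits, and the removal of copies, were chosen after the data were seen.

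For each class the counts of a library were added up and scaled to CPM, with exact Poisson intervals and exact conditional binomial intervals of ratios. The 1.5-fold limit applied to ratios of CPM without a pseudocount. The scripts were tested on simulated data. No p-value was made. The members, marker lists and companion lists were chosen with earlier results of these data known. Genes given in detail were members past 1.5-fold and the 4 highest and 4 lowest log2 ratios in macrophage-like cells, the highest and lowest in each other class, and at most 3 genes per companion list, except that single genes of the further sterol list are not reported here; values of other members and of clusters were chosen after they were seen.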

Additional observations from a re-analysis of the deposited data

Results flagged for a closer look

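Idi1 lay on opposite sides between classes. Its ratio, titled Blood over titled Control, was 1.58 (1.17 to 2.14) in osteoclast-like cells, at 47.0 CPM titled Blood and 29.8 titled Control, and 0.502 (0.357 to 0.696) in migratory DC-like cells, at 86.9 CPM titled Blood and 173 titled Control. Acaca did so too, with a ratio of 1.61 (1.001 to 2.63) in osteoclast-like cells, at 19.5 CPM titled Blood and 12.1 titled Control, and 0.575 (0.355 to 0.913) in conventional DC-like cells, at 11.8 CPM titled Blood and 20.5 titled Control. With 1 library per group these differences between classes were not tested.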

How the results depend on the processing

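No paired analysis was possible because there was 1 library per group. The counts and medians for macrophage-like cells were recomputed under 15 other settings, 4 of them chosen after seeing the data, and each member's log2 ratio under 14. No member passed 1.5-fold downwards in any, and Scd2 alone passed upwards in all but equal cluster weights, where 0 passed; its log2 ratio ranged from 0.49 to 0.70. The median log2 ratio of the members, 0.05, was 0.0136 with members among the variable genes, 0.0797 with equal weights and 0.0668 without the proliferating cluster. That of the enzymes, 0.04, was 0.0026 with stricter cell filters, 0.0156 at resolution 0.5, -0.0128 with each library clustered alone, -0.0014 with members among the variable genes, 0.0875 with equal weights and 0.0103 with unnamed macrophage-marked clusters counted in, so its sign was not settled. Of 434 single-member values 423 moved by less than counting error and 11 by more. The log2 ratio of Scd2, the only member past 1.5-fold, kept its sign, but only 21 of the 31 members kept 1 sign under all 14 settings. Acaca, for example, ranged from -0.13 to 0.04 and Fdps from -0.16 to 0.03. Depth limits the neutrophil-like class titled Control, where the 18 enzymes had 31 UMIs in all.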
